A study of Homo sapiens with 2 samples.

Results

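Genes annotated to cell adhesion or to the actin cytoskeleton were examined in the human colorectal adenocarcinoma line HT-29, which grows as epithelial cells, with and without knockdown of GPR126. This receptor (current symbol ADGRG6) belongs to the adhesion class of G protein-coupled receptors, which carry long extracellular regions and signal through G proteins inside the cell. Members were the rows of the authors' deposited table whose gene ontology process field holds "cell adhesion", "actin cytoskeleton" or "actin filament". Rows that also carried an apoptosis, mitosis or cell division term, solute carriers, and a set of matrix, receptor and growth factor genes were left out. This gave 58 of the 2007 listed genes. Of these, 34 carried the adhesion term, 27 an actin term and 3 both.

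The study held 2 samples. One library came from HT-29 cells labelled as carrying a scramble control, and the other from HT-29 cells labelled as GPR126 knockdown, a short hairpin RNA by its title. Nothing in the labels names the hairpin sequence, the number of hairpins, the time after knockdown, or whether cells were a pool or a clone. Each group had 1 library, so no difference below has a replicate check and no test was run.

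Adhesion receptors span the plasma membrane and bind neighbouring cells or matrix outside the cell, while adaptors such as vinculin and kindlins couple them to actin inside. Actin filaments grow from nucleators such as the Arp2/3 complex and formins, are fed by profilin-bound monomers, and are capped, crosslinked and pulled by further proteins. In colon epithelium these systems hold the cell sheet together and shape the brush border.

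The knockdown was visible in its target. GPR126, which is no member, had 68 reads in the scramble library and 2 in the knockdown library, 35.5-fold fewer after scaling (9.46 to 299 by counting error). The libraries held 5753320 and 6010192 reads, and the 58 members took 24349 and 16765 of them. All folds below compare the knockdown with the scramble library after scaling to these totals. The range in brackets is an exact 95% interval that covers counting error only. In bulk RNA, fewer cells expressing a gene and less RNA per cell cannot be told apart.

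The table is limited to genes that the authors listed as differing. The largest FDR that the authors deposited is 0.000999, and genes at few reads appear in the table at large ratios. An unlisted gene has no value here. The smallest absolute deposited log2 ratio is 1.0. By the deposited ratios every listed gene was thus at about 2-fold or more. The direction and size of a difference, not its presence, are therefore the measurements. None of 10 markers of colon epithelial lines (such as EPCAM, CDH1 and KRT20), 7 endothelial markers and 9 leukocyte markers was listed, so these could not check the labelled line. Of 10 fibroblast markers COL1A1 was listed, with 83 and 227 reads.

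More of the adhesion and actin genes were lower than higher in the knockdown library. With 0.5 reads added to each count, 37 of 58 were at least 2-fold lower, or 63.8%, beside 66.4% of all listed genes. At least 2-fold higher were 19, or 32.8%, beside 32.9% of all listed genes. VCL and HES1 lay just under 2-fold on this scale. The members' median log2 ratio was -1.17 and that of all listed genes -1.16. The split of directions among the members was thus near that of the table as a whole. It rests on scaling to the library totals: with the median of the listed ratios set to 0, which adds a log2 of 1.16 to every ratio, 29 members lay above 0 and 29 below. Intervals lay wholly beyond 2-fold in 19 lower members (32.8%, against 33.1% of all listed genes) and 11 higher members (19.0%, against 16.4%).

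**Figure D1:**
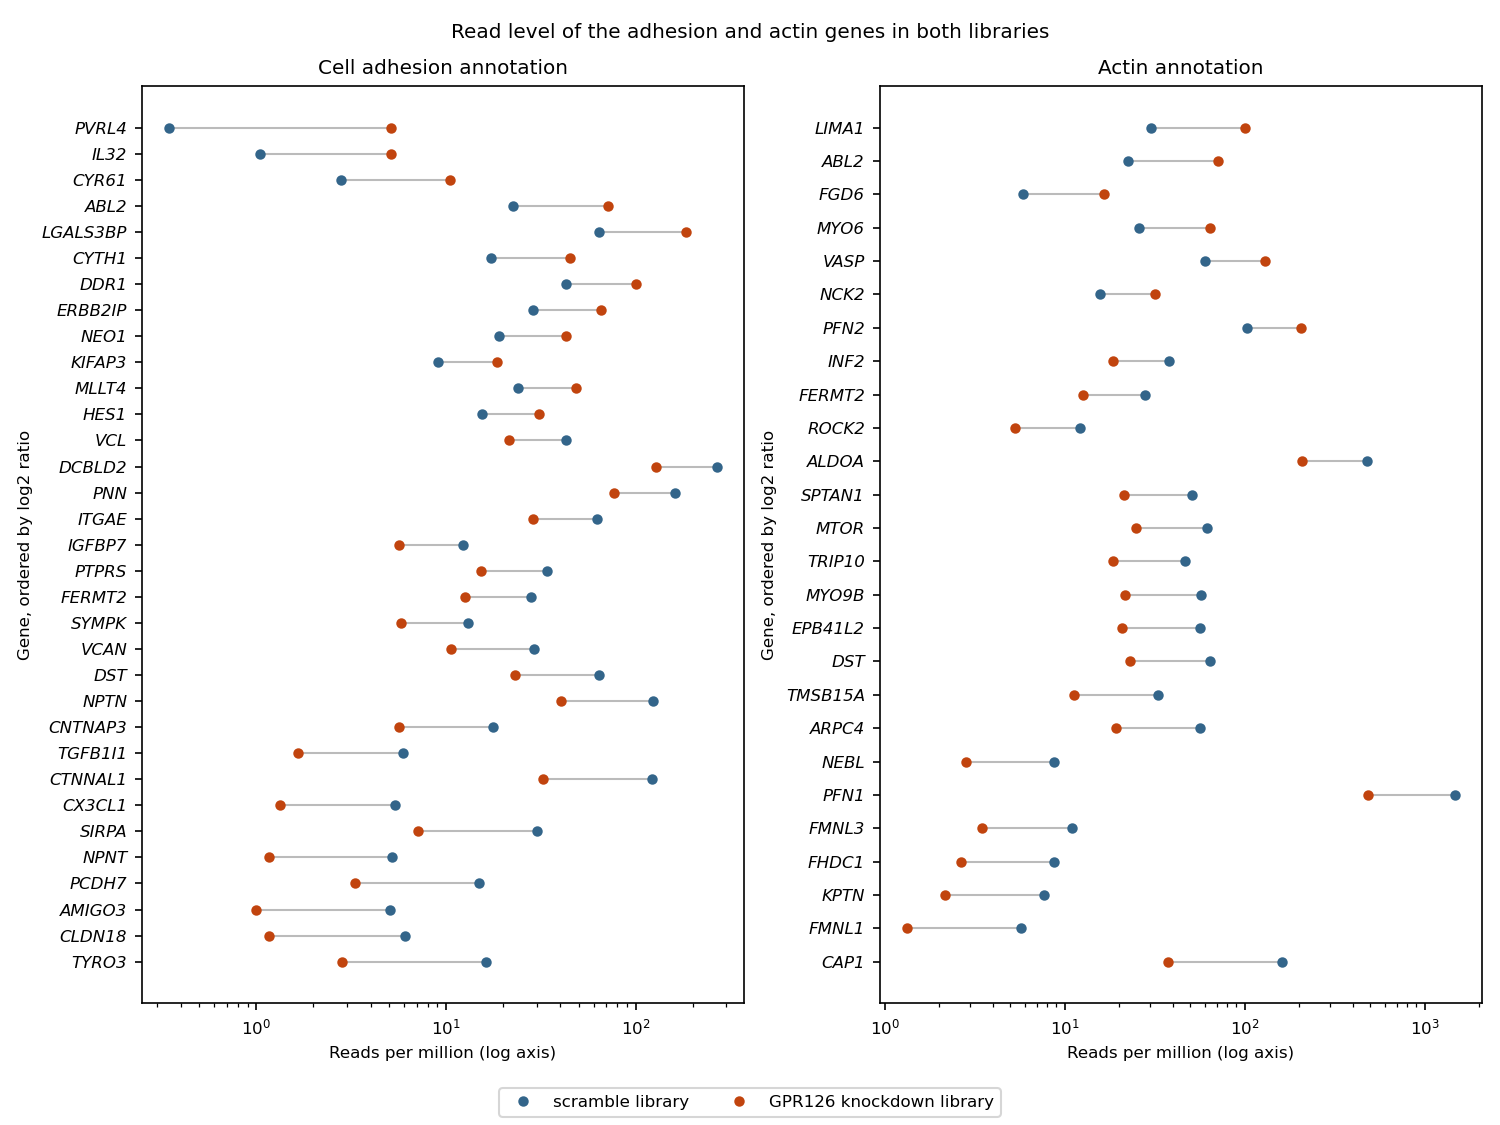
Reads per 1000000 (RPM) in the scramble (blue) and GPR126 knockdown (orange) library for 56 of the 58 genes, on a log axis, with adhesion-annotated genes at left and actin-annotated genes at right; 3 genes appear in both panels. Lines join the 2 libraries of a gene. In all, 21 of 34 adhesion genes and 19 of 27 actin genes are lower in the knockdown, or 13 and 17 with the median of the listed ratios set to 0.

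The choice of rows bears on this balance. Left out were 21 rows with the same terms, 14 of them at least 2-fold higher and 7 lower. Over all listed genes the shares were 32.9% and 66.4%. Of the 14 higher genes, 12 carried the adhesion term. Among them are the laminin chains LAMA3 and LAMB3, the catenin CTNND1 and the desmosomal protein PERP. With these rows back in, 33 genes were higher and 44 lower, and the median log2 ratio of the adhesion-annotated genes was near 0 (-0.000647) in place of -1.11. Several members are annotated to adhesion or actin but are better known for other work. HES1 is a Notch target transcription factor, MTOR a growth kinase, ALDOA a glycolytic aldolase, and PNN and SYMPK act in splicing and 3′ end processing of mRNA.

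Of the 13 transmembrane adhesion receptors, 10 were at least 2-fold lower and 3 higher; with the median of the listed ratios set to 0, DCBLD2, PTPRS and ITGAE turned above 0 and 7 lay below. That is 76.9% lower, beside 66.4% of all listed genes. Their median log2 ratio was -1.61, and 5 were at least 4-fold lower (38.5%, beside 8.17% of all listed genes), against 1 at least 4-fold higher (7.69%, beside 8.27%). CLDN18 and AMIGO3 among the 5, and the 1 higher receptor, PVRL4, rest on few reads. TYRO3, a receptor tyrosine kinase that binds GAS6 and protein S, had 93 scramble and 17 knockdown reads. It was 5.71-fold lower (3.38 to 10.2), the lowest ratio of all members. SIRPA, the receptor for CD47, had 173 and 43 reads and showed a 4.20-fold lower level (2.99 to 6.01). The protocadherin PCDH7 had 86 and 20 reads, a 4.49-fold lower level (2.74 to 7.72). Each of the 5 receptors at least 4-fold lower had a counting interval wholly beyond 2-fold, but none had an interval wholly beyond 4-fold.

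CLDN18, a tight junction claudin, had 35 and 7 reads, and AMIGO3, a leucine-rich repeat membrane protein, had 29 and 6. They were 5.22-fold (2.29 to 13.9) and 5.05-fold (2.06 to 14.9) lower on few reads. NPTN, the immunoglobulin superfamily protein neuroplastin, rested on more reads, 712 and 243, and was 3.06-fold lower (2.64 to 3.56). CNTNAP3, a contactin-associated protein, had 102 and 34 reads, a 3.13-fold lower level (2.11 to 4.77). CNTNAP3 has near-identical copies in the genome, so its count is uncertain: the rule by which reads matching several copies were counted is not stated. DCBLD2, a membrane protein with a CUB and a discoidin domain, had the most reads of the receptors, 1538 and 771, and was 2.08-fold lower (1.91 to 2.28). The receptor phosphatase PTPRS (195 and 92 reads) was 2.21-fold lower (1.72 to 2.87). ITGAE, the integrin alpha chain that pairs with beta 7 to bind E-cadherin, had 359 and 173 reads and was 2.17-fold lower. The intervals of these last 3 receptors reached below 2-fold.

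The 3 higher receptors were a cell-cell receptor, a collagen receptor and a guidance receptor. PVRL4, now NECTIN4, a nectin of adherens junctions, had 2 scramble and 31 knockdown reads. Its ratio of 14.8 was the highest of all members, with an interval of 3.78 to 128 that follows from the 2 scramble reads. DDR1, a receptor tyrosine kinase for collagen, had 247 and 602 reads and was 2.33-fold higher (2.01 to 2.72). NEO1, the netrin and repulsive guidance molecule receptor neogenin, had 109 and 258 reads and was 2.27-fold higher (1.80 to 2.86). DDR1 and TYRO3, both receptor tyrosine kinases, were compared after their values were seen. The DDR1 to TYRO3 read ratio was 2.66 in the scramble library and 35.4 in the knockdown library, a 13.3-fold change (7.68 to 24.3) that does not depend on how the libraries were scaled.

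**Figure D2:**
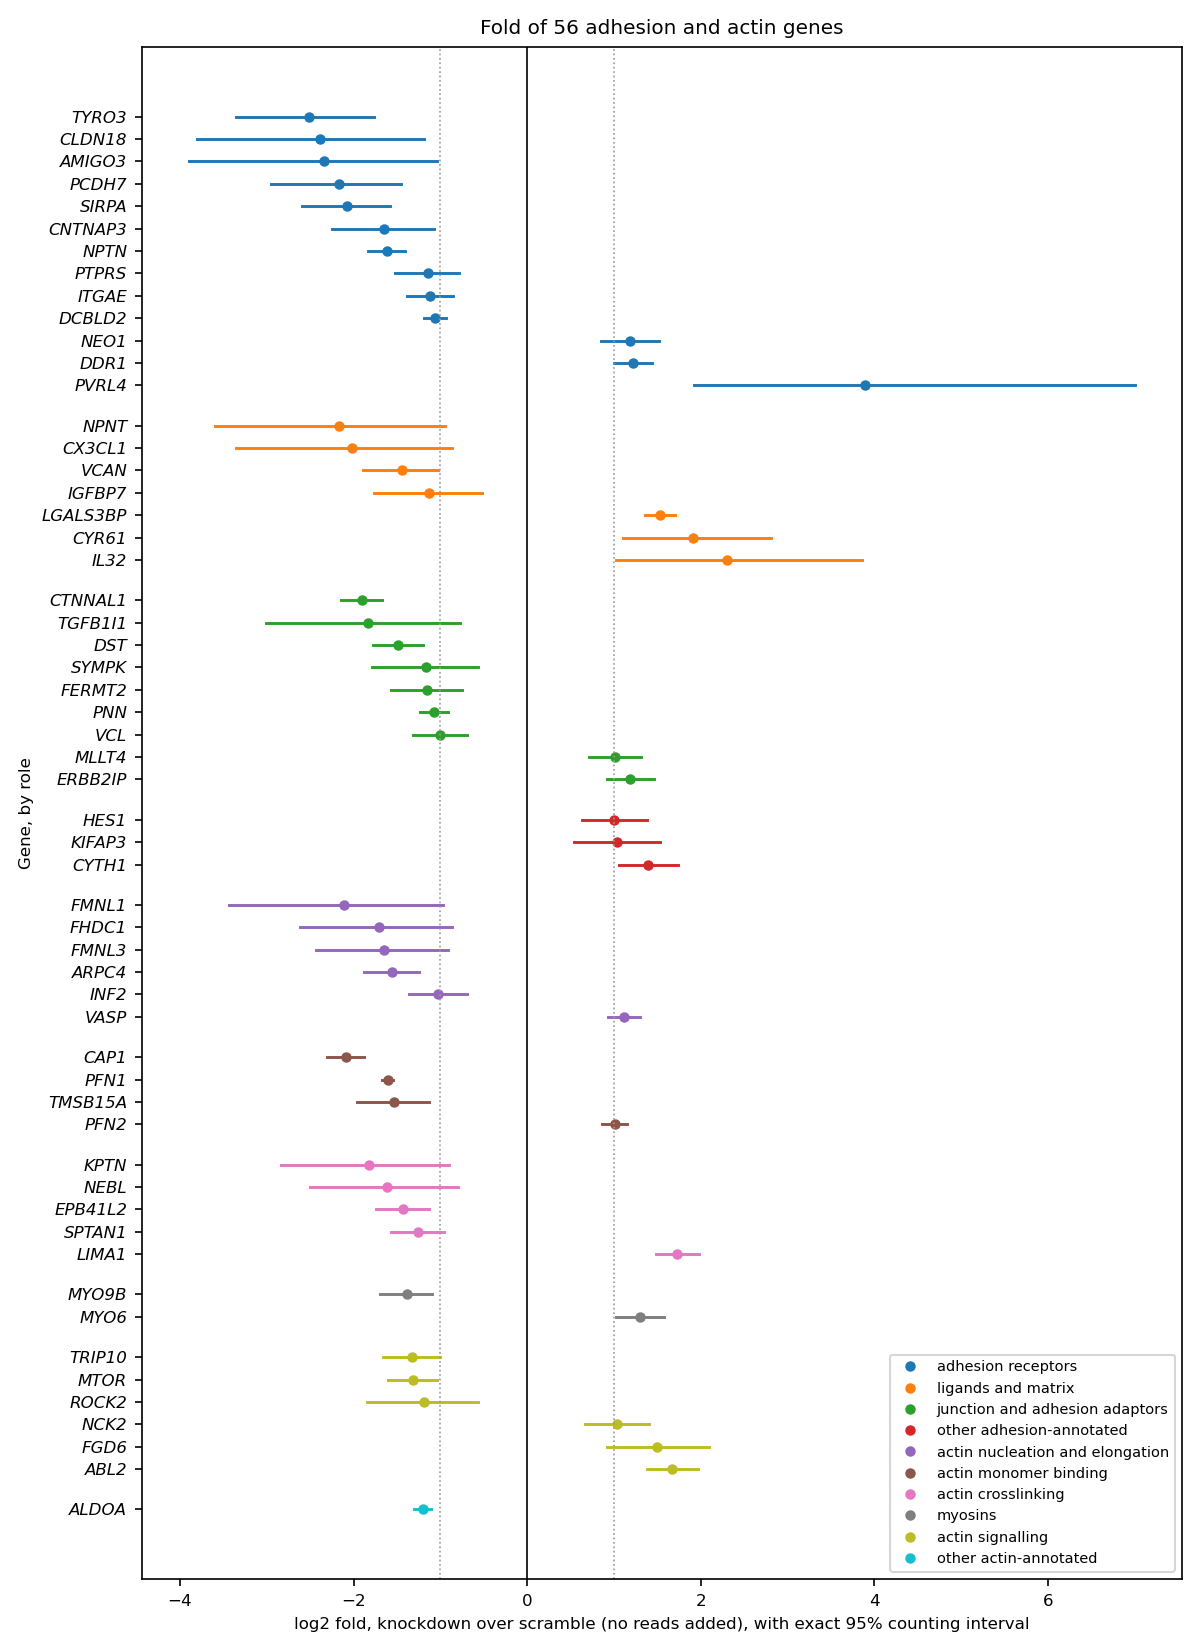
log2 fold of 56 of the 58 genes, knockdown over scramble without added reads, with its exact 95% counting interval, by role; the dotted lines mark 2-fold. Of the 13 receptors 10 lie left of 0 (7 with the median of the listed ratios set to 0).

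Secreted and matrix ligands were divided evenly, 4 lower and 4 higher of 8, beside 66.4% lower and 32.9% higher of all listed genes. IGFBP7 turned above 0 under the median scaling just described. LGALS3BP, a secreted galectin-binding glycoprotein, had 366 and 1102 reads and was 2.88-fold higher (2.56 to 3.25). CYR61 (CCN1), a matricellular integrin ligand, had 16 and 63 reads and was 3.77-fold higher (2.15 to 6.99). IL32, a cytokine, had 6 and 31 reads (4.95-fold higher, 2.03 to 14.5). All 4 higher ligands had intervals wholly beyond 2-fold (4 of the 8 ligands, beside 16.4% of all listed genes).

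Among the lower ligands, NPNT, the integrin alpha 8 beta 1 ligand nephronectin, had 30 and 7 reads, and CX3CL1, the membrane-anchored chemokine fractalkine, had 31 and 8. They were 4.48-fold (1.93 to 12.1) and 4.05-fold (1.82 to 10.2) lower. VCAN, the proteoglycan versican, had 167 and 64 reads, a 2.73-fold lower level (2.03 to 3.70). IGFBP7 had 71 and 34 reads, a 2.18-fold lower level (1.43 to 3.39). Of these 4, VCAN alone had an interval wholly beyond 2-fold (12.5% of the 8 ligands, beside 33.1% of all listed genes).

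Of 9 adaptors at junctions and matrix contacts, 6 were at least 2-fold lower (66.7%, beside 66.4% of all listed genes), and VCL lay just under that limit. Their split was near that of the table as a whole. With the median of the listed ratios set to 0, FERMT2, VCL, SYMPK and PNN turned above 0 and 3 of the 9 lay below. CTNNAL1, the catenin-like protein alpha-catulin, had 700 and 195 reads, a 3.75-fold lower level (3.20 to 4.42). DST, the dystonin spectraplakin that links hemidesmosomes and actin to other filaments, had 370 and 138 reads, a 2.80-fold lower level (2.30 to 3.43). TGFB1I1 (Hic-5), a paxillin relative, had 34 and 10 reads, a 3.55-fold lower level (1.72 to 8.06). FERMT2, kindlin-2, which activates integrins, had 162 and 76 reads (2.23-fold lower, 1.69 to 2.96). Vinculin, VCL, had 247 and 129 reads (2.0002-fold lower, 1.61 to 2.49). PNN had 922 and 459 reads and SYMPK 75 and 35. They were 2.10-fold (1.87 to 2.35) and 2.24-fold (1.48 to 3.45) lower.

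The 2 higher adaptors belong to cell-cell junctions and basolateral membranes. MLLT4, the nectin adaptor afadin, had 138 and 291 reads and was 2.02-fold higher (1.64 to 2.49), and ERBB2IP, the PDZ protein erbin, had 165 and 393 reads and was 2.28-fold higher (1.90 to 2.75). Afadin and its binding partner nectin-4 thus lay on the same side. The other 3 adhesion-annotated genes were higher. CYTH1, an ARF exchange factor that binds integrin beta 2, had 99 and 272 reads and was 2.63-fold higher (2.08 to 3.34). KIFAP3, a kinesin-2 subunit, had 52 and 111 reads (2.04-fold higher, 1.46 to 2.90), and HES1 had 89 and 186 (2.0006-fold higher, 1.55 to 2.61).

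On the actin side, 19 of 27 genes were at least 2-fold lower, or 70.4%, and 8 at least 2-fold higher, or 29.6%, beside 66.4% and 32.9% of all listed genes. Their median log2 ratio was -1.31. With the median of the listed ratios set to 0, FERMT2 and INF2 turned and 17 lay below 0. At least 4-fold lower were 2 (7.41%, beside 8.17%) and at least 4-fold higher 0 (beside 8.27%). Of the 4 genes that bind actin monomers, 3 were at least 2-fold lower (beside 66.4% of all listed genes). PFN1, profilin-1, which delivers monomers to growing filament ends, had 8454 and 2902 reads, a 3.04-fold lower level (2.92 to 3.18). CAP1, the cyclase-associated protein that recycles cofilin-bound monomers, had 924 and 227 reads, a 4.25-fold lower level (3.67 to 4.94). TMSB15A, a beta-thymosin, had 189 and 68 reads, a 2.90-fold lower level (2.19 to 3.89). PFN2, profilin-2, went the other way, with 590 and 1239 reads (2.01-fold higher, 1.82 to 2.22).

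The profilins were set against each other after their values were seen. For each PFN1 read there were 0.0698 PFN2 reads in the scramble library and 0.427 in the knockdown library, a 6.12-fold change (5.49 to 6.82) that holds whatever the scaling. PFN1 and ALDOA have processed pseudogenes and TMSB15A a near-identical neighbour, so their counts carry the same uncertainty. The PFN1 promoter, from 250 bases before to 50 after the gene's start, is shown because PFN1 had the most reads of all members in both libraries. It lies at chr17:4948481-4948780 on the minus strand of GRCh38.p14 in RefSeq, and capitals mark a TEAD core motif whose first base is at -100.
PFN1 promoter: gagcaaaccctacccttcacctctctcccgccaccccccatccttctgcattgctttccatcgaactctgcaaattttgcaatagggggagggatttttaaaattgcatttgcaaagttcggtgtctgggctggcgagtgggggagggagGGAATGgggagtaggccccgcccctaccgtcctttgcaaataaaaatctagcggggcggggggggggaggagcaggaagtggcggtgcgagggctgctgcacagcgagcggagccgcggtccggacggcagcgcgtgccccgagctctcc

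Of 6 filament nucleation and elongation genes, 5 were at least 2-fold lower (83.3%, beside 66.4% of all listed genes), and 1 of the 6 had an interval wholly beyond 2-fold lower (16.7%, beside 33.1%). The 4 formins among the members were all lower, INF2 turning above 0 with the median of the listed ratios set to 0: FMNL1 (33 and 8 reads, 4.31-fold, 1.95 to 10.8), FHDC1 (50 and 16 reads, 3.26-fold, 1.83 to 6.14), FMNL3 (63 and 21 reads, 3.13-fold, 1.89 to 5.41) and INF2 (218 and 112 reads, 2.03-fold, 1.61 to 2.58). None of these 4 intervals lay wholly beyond 2-fold. ARPC4, a subunit of the Arp2/3 complex, had 327 and 116 reads, a 2.94-fold lower level (2.38 to 3.67). VASP, which elongates filaments at adhesions and cell edges, had 346 and 782 reads and was 2.16-fold higher (1.90 to 2.46).

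**Figure D3:**
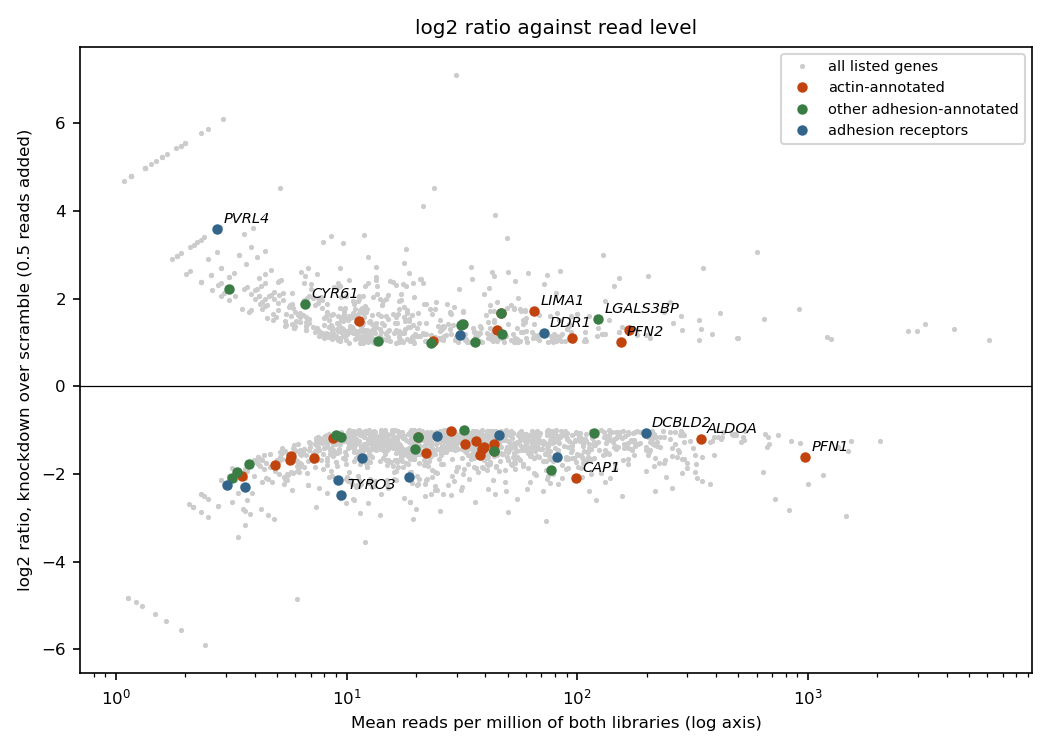
log2 ratio with 0.5 reads added against mean RPM of both libraries (log axis); grey points are the 2007 listed genes and coloured points the members. PVRL4, at the upper left, rests on 2 scramble reads, and PFN1, at the lower right, on 8454. Genes at few reads appear in the table at large ratios.

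Of 6 crosslinkers and membrane linkers, 4 were lower (66.7%, beside 66.4% of all listed genes) and 2 higher. LIMA1 (EPLIN), which bundles filaments and links them to cadherin junctions, had 174 and 601 reads and was 3.31-fold higher (2.79 to 3.94), the highest ratio of the actin genes. EPB41L2, a band 4.1 protein of the membrane skeleton, had 325 and 126 reads (2.69-fold lower, 2.19 to 3.34), and SPTAN1, alpha II spectrin, had 295 and 129 (2.39-fold lower, 1.94 to 2.96). KPTN, kaptin, had 44 and 13 reads and NEBL, the nebulin relative nebulette, 50 and 17. They were 3.54-fold (1.87 to 7.16) and 3.07-fold (1.74 to 5.68) lower.

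The 2 myosins lay on opposite sides. MYO9B, an unconventional myosin, had 328 and 131 reads, a 2.62-fold lower level (2.13 to 3.23). MYO6, which moves toward filament minus ends, had 150 and 385 reads and was 2.46-fold higher (2.03 to 2.99). The MYO6 to MYO9B read ratio went from 0.457 to 2.94, a 6.43-fold change (4.83 to 8.56), also computed after the values were seen. Of the 7 pairs of related members given here, the other 4 had intervals that included 1. The INF2 ratio changed by 1.54-fold (0.874 to 2.80) to FMNL3, 2.12-fold (0.919 to 5.48) to FMNL1 and 1.61-fold (0.852 to 3.16) to FHDC1, and the VCL to FERMT2 ratio by 1.11-fold (0.777 to 1.60).

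Signalling genes of the actin group were 3 lower and 3 higher, beside 66.4% lower and 32.9% higher of all listed genes. ABL2 (ARG), a tyrosine kinase that binds actin and carries both annotations, had 129 and 428 reads and was 3.18-fold higher (2.60 to 3.90). FGD6, an exchange factor of the CDC42 type, had 34 and 100 reads (2.82-fold higher, 1.89 to 4.29), and NCK2, an SH2 and SH3 adaptor, 90 and 192 (2.04-fold higher, 1.58 to 2.65). TRIP10 (CIP4), a CDC42 effector, had 269 and 112 reads (2.51-fold lower, 2.01 to 3.16), and MTOR had 357 and 150 (2.49-fold lower, 2.05 to 3.03). ROCK2, a kinase that drives myosin contraction, had 70 and 32 reads (2.29-fold lower, 1.48 to 3.59). The remaining actin-annotated member, ALDOA, had 2758 and 1250 reads, a 2.30-fold lower level (2.16 to 2.47).

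ROCK2 was the member whose promoter held a CArG box, the motif of serum response factor, which controls many cytoskeletal genes. RefSeq promoters were matched for 49 of the 58 members. On either strand, a CArG box was in 1 of 49 (2.04%) against 0.975% of 1641 listed promoters and 1.29% of 27305 promoters in all. The TEAD core GGAATG was in 6 (12.2%, against 9.75% and 14.0%), the AP-1 motif TGANTCA in 3 (6.12%, against 3.78% and 7.76%) and the TATA box TATAAA in 2 (4.08%, against 5.73% and 11.95%). The ROCK2 promoter lies at chr2:11345388-11345687 on the minus strand of GRCh38.p14. Capitals mark, in order, a TEAD core on the opposite strand at -184, the CArG box at -73 and a TATA motif on the opposite strand at -31.
ROCK2 promoter: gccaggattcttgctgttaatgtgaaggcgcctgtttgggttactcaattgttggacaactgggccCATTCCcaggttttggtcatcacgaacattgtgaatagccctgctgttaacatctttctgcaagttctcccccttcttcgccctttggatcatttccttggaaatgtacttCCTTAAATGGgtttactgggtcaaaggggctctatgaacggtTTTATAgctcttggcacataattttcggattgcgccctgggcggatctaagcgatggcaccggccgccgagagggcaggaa

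Set side by side, the receptors had a median log2 ratio of -1.61 and the actin-annotated genes -1.31, a difference of -0.30. The groups overlapped over most of their range, from -2.48 to 3.59 for receptors and from -2.09 to 1.72 for actin genes. The groups also differed in read depth. The receptors had a median of 109 scramble reads and the actin genes 218, and 3 receptors and 2 actin genes had fewer than 50 reads in both libraries. Without members of so few reads, the medians were -1.38 and -1.25 and the difference -0.124. Without the 4 genes whose copies may share reads, the medians were -1.38 and -1.28 and the difference -0.0951. Of the receptors this dropped CNTNAP3 alone, so the receptor median moved as far as without the genes of few reads. Whether read depth bears on the difference was not tested. The 21 other adhesion-annotated genes had a median of -0.998, with 10 lower and 9 higher by at least 2-fold. That is 47.6% and 42.9%, beside 66.4% and 32.9% of all listed genes.

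**Figure D4:**
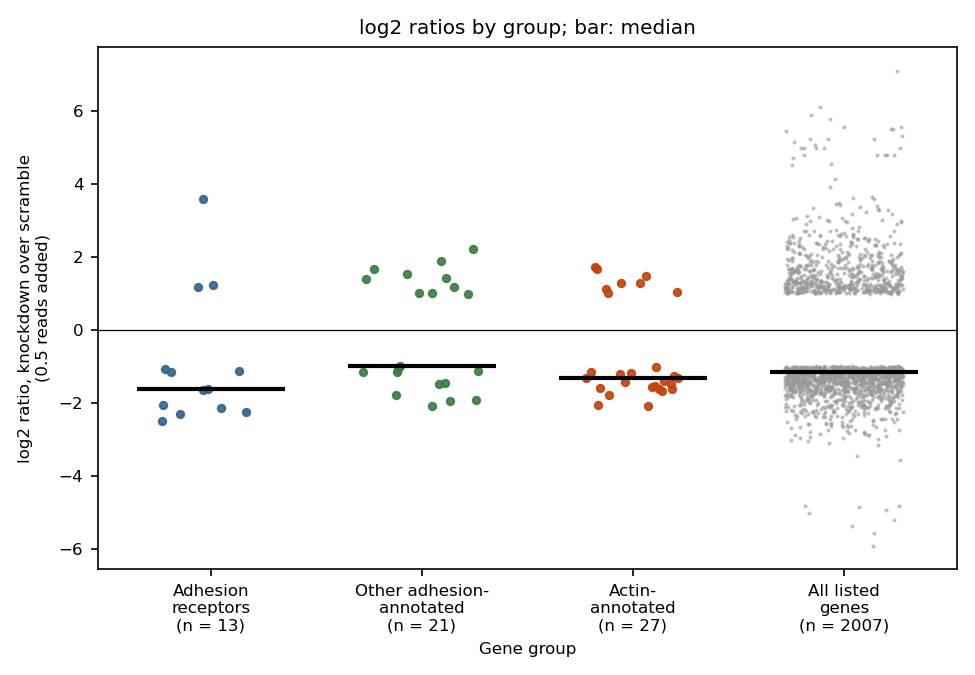
log2 ratios with 0.5 reads added for 13 adhesion receptors, 21 other adhesion-annotated genes, 27 actin-annotated genes and all 2007 listed genes; points are genes and bars medians (-1.61, -0.998, -1.31 and -1.16). Ratios fall in 2 bands with a gap around 0, because the smallest absolute deposited log2 ratio is 1.0.

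Further genes of these systems came from lists that do not use the annotation but were chosen with earlier results of these data known. The lists overlap the members, so their counts partly repeat those above. Members were 6 of the 8 listed formin and monomer-binding genes, 4 of 6 focal adhesion adaptors and 3 of 4 bundling genes. Of the 7 listed actins, tropomyosins and myosins, 2 were members. Their counts stand beside 66.4% of all listed genes at least 2-fold lower and 32.9% higher. Of 35 actins, tropomyosins and myosins, 7 were listed, 6 of them lower. Beta-actin itself, ACTB, had 9534 and 2130 reads, a 4.68-fold lower level (4.46 to 4.90), and the myosin light chains MYL9 and MYL6 were 3.42-fold (3.08 to 3.81) and 2.36-fold (2.22 to 2.52) lower. Of 28 genes of severing, capping and depolymerization, 2 were listed and both were lower: TWF1, twinfilin-1, 3.32-fold (2.91 to 3.79), and CFL1, cofilin-1, with 12426 and 5431 reads, 2.39-fold (2.32 to 2.47). Like PFN1, the abundant ACTB, MYL6 and CFL1 have processed pseudogenes. Of 22 formin and monomer-binding genes, 8 were listed, 6 lower and 2 higher. CAP2, like its relative CAP1, was lower (4.18-fold, 2.24 to 8.37), and the nucleator COBL was higher (2.21-fold, 1.44 to 3.46). Of 27 genes of branched nucleation, 4 were listed: ARPC4 and ACTR2, both Arp2/3 subunits, were lower (ACTR2 2.51-fold, 2.27 to 2.77), and CYFIP1 and CYFIP2 of the WAVE complex were higher (2.02-fold and 3.09-fold).

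Few genes of cell-cell junctions were listed. Of 19 cadherin and adherens junction genes 3 were listed and all 3 were higher, PVRL4, MLLT4 and CTNND1 (2.36-fold, 2.13 to 2.62). Of 16 desmosome genes 2 were listed, PERP (2.16-fold, 2.04 to 2.29) and PPL (2.35-fold, 1.68 to 3.32), and of 19 tight junction genes 1, TJP3, all higher; CLDN18, which was lower, was not in that list. By the annotation in the table the directions were mixed: of 4 listed genes with the tight junction term 2 were at least 2-fold higher and 2 lower (CLDN18 and SYMPK), and of 4 with the adherens junction term 2 were higher and 1 lower. Of 26 integrins, ITGAE was listed and the other 25 were not. Of 32 focal adhesion adaptors 6 were listed, 2 at least 2-fold higher (VASP and SRC) and 3 lower (TGFB1I1, FERMT2 and EVL, a VASP relative that was 2.74-fold lower, 1.86 to 4.12), with VCL just under the limit.

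Of 30 bundling and crosslinking genes 4 were listed, 3 higher and 1 lower, among them FLNC, 2.01-fold higher (1.71 to 2.36). Of 27 serum response factor targets and cofactors 5 were listed, with ACTB, MYL9 and TGFB1I1 at least 2-fold lower and FHL2 5.60-fold higher (4.91 to 6.40). Of 21 YAP and TEAD genes 5 were listed and all 5 were higher, beside 32.9% of all listed genes: CYR61, CTGF (3.51-fold, 1.96 to 6.69), AMOTL2 (2.35-fold, 2.01 to 2.77), NT5E (2.33-fold, 1.90 to 2.85) and TEAD2 (2.29-fold, 1.68 to 3.16). These counts are small, and no list was tested.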

How the data were processed

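One library per group was sequenced from HT-29 cells. The authors deposited a whole-number read count per gene and library, and a column headed TPM that equals the count per total times 1000000 (RPM) for every count above 0; a count of 0 is entered as 0.01. Per the file headers, the table also holds the authors' log2 ratio, p-value and FDR. Of these p-value columns only the FDR was used, for 1 alternative and for its largest value. No label or header names an aligner, counting tool, annotation or build. Library totals were recovered from the counts above 0 and their RPM values, all of which matched within 0.0051. From the counts, log2 ratios with 0.5 reads added, folds without, and exact Clopper-Pearson 95% intervals conditional on the summed count were computed (Python 3.11.15, numpy 2.4.6, pandas 2.3.3, scipy 1.17.1, matplotlib 3.10.9) and checked on simulated counts. Every gene passed a floor of 1 RPM in at least 1 library. All 58 members matched a RefSeq identifier; some members and listed genes are not reported here by name.

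The members, role classes and lists were chosen with earlier results of these data known. Full values were due to the 12 highest and 12 lowest members with at least 50 reads, the extremes of the receptors and actin genes, and the 5 members with most reads in each library; other members and pairs were named by role, after their values were seen. Alternatives covered pseudocount, scaling, floor, unit, member rule, fold limit, interval and deposited FDR.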

Additional observations from a re-analysis of the deposited data

How the results depend on the processing

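No paired analysis was possible because neither library has a replicate, and none could be dropped in turn. With 0.05 or 5 reads added or the deposited RPM values, the counts of members 2-fold higher and lower stayed within 1.5 times. Every named gene kept its direction under these settings. Dropping the floor or raising it to 5 RPM could change nothing, since every member exceeded 5 RPM in at least 1 library. Scalings computed from the listed genes alone added a log2 of 1.16 (median of the ratios), 1.005 (trimmed mean) or 0.707 (upper quartile) to each ratio, since most listed genes were lower. In that order, members at least 2-fold lower numbered 3, 8 and 12 in place of 37, the medians of adhesion-annotated genes became 0.0454, -0.109 and -0.407, of actin-annotated genes -0.152, -0.306 and -0.604, and of receptors -0.452, -0.607 and -0.905. With the median scaling 9 of 58 members turned sign, among them the named DCBLD2 (0.101) and PNN (0.0911) and the receptors PTPRS and ITGAE. With the trimmed mean VCL turned, and with the upper quartile none did. Each scaling adds the same constant to every ratio, so the difference between receptors and actin genes stays at -0.301 by construction. Among members with a deposited FDR of 1e-10 or less, that difference was -0.0518. A 4-fold limit left 2 higher and 8 lower members (3.45% and 13.8%, beside 8.27% and 8.17% of all listed genes). Intervals beyond 2-fold left 11 and 19 (19.0% and 32.8%, beside 16.4% and 33.1%). A deposited FDR of 1e-10 or less left 13 and 20, and the share over all listed genes was not computed for it. Without the exclusions of rows, 33 members were higher and the adhesion median was -0.000647. The alternatives that drop members with few reads or shared copies were chosen after seeing the data. Depth limits PVRL4, IL32, CLDN18, AMIGO3, NPNT, CX3CL1 and FMNL1, each with at most 8 reads in 1 library.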

Other observations

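Other annotations of the members were counted after their values were seen. Over all listed genes, 66.4% were at least 2-fold lower and 32.9% higher. The listed genes of each term include the members. Of 17 members that bind actin, 13 were at least 2-fold lower and 3 higher, beside 24 and 6 of the 31 listed actin-binding genes. All 6 members with the calcium ion binding term were lower (DST, ITGAE, NPNT, PCDH7, SPTAN1 and VCAN; ITGAE turned above 0 under the median scaling), beside 41 of 61 listed genes with that term. Of 10 members placed at cell junctions, 5 were higher and 4 lower, beside 20 and 8 of the 29 listed genes of that component.

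Promoters of lower members were richer in G and C than those of higher members, while over all listed genes the directions were close. The 34 lower members with a RefSeq promoter had a median GC content of 70.2% and the 15 higher members 62.3%. Over the listed genes the medians were 65.0% for lower and 65.7% for higher genes, and over 27305 promoters 58.3%. The directions rest on scaling to the library totals, and 9 of the 58 members turned above 0 with the median scaling. These are descriptions, with no test.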
